A study of Mus musculus with 12 samples.

Results

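The comparison described here asks how far the response of mouse liver to loss of Apc depended on Myc. It is a difference of differences: the change between ApcMyc and Myc livers, minus the change between Apc and WT livers, called the interaction below. All 12 arrays of the series entered it, 3 per group, and it was computed for 32115 of the 32176 deposited probe sets, leaving out 61 control probe sets. All 4 groups carried AhCre, a Cre recombinase gene that responds to the inducer beta-naphthoflavone, given as 3 injections of 80 mg/kg in 1 day with livers taken on day 4. WT mice were AhCre-positive wild-type controls, Apc mice were homozygous for a floxed Apc allele, Myc mice were homozygous for a floxed c-Myc allele, and ApcMyc mice were homozygous for both. The labels give neither sex nor age, and do not state the share of cells that recombined or that each array came from a separate animal. The p-values therefore measure the spread between these arrays, which may be technical.

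Apc is part of the complex that marks beta-catenin for destruction; without it beta-catenin accumulates and, with TCF factors, switches on Wnt target genes. In the liver this pathway sets the zones of the lobule: hepatocytes around the central vein carry Wnt activity, glutamine synthesis and much of drug metabolism, and those around the portal vein carry urea synthesis and amino acid breakdown. Myc is a transcription factor of growth and cell division and is itself a Wnt target, so genes that answer to Apc loss may lie downstream of beta-catenin, of Myc or of both.

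A positive interaction means that a gene stood higher after Apc loss, relative to its own control, when Myc was deleted than when Myc was intact; a negative one means that it stood lower. Levels are given as log2 after adding 16 to the normalized signal, so changes of dim genes are understated, and an interaction is called at an adjusted p under 0.05 in limma. WT and Apc arrays have titles of one style and Myc and ApcMyc arrays of another. The dap control probe set had signals of 126.8 to 238.7 in WT and 197.5 to 213.5 in Apc. Its signals were 1.0 to 7.9 in Myc and 1.0 to 1.4 in ApcMyc. The styles thus differed in this control as well as in title, and the cause was not tested. An additive difference between the styles cancels in the interaction. Before normalization the median signal was 35.4 to 53.7 across WT and Apc arrays, from 59.5 to 78.9 in Myc and from 86.5 to 106.9 in ApcMyc. The ratio of the 3' to the 5' Gapdh control probe set was 0.92 to 0.97 in WT, 0.72 to 0.89 in Apc, 0.97 to 1.18 in Myc and 1.07 to 1.18 in ApcMyc. For beta-actin it was 2.08 to 2.6 in WT, 1.57 to 2.16 in Apc, 1.62 to 2.09 in Myc and 1.62 to 1.72 in ApcMyc. For pyruvate carboxylase it was 7.87 to 17.31, 5.4 to 8.7, 9.65 to 12.03 and 8.31 to 10.77 in the same order. The controls thus ordered the groups differently. The part of brightness and of these ratios in the interaction was not tested. With the arrays normalized within each title style 785 interactions were called, 673 of them among those called with all arrays together. That run still gives Myc and ApcMyc arrays the same distribution of signals, so it does not test a brightness difference between them. The hepatocyte genes Apoa1, Apob and Serpina1a were bright in every array, with a summed level of 15.13 to 15.15 in WT, 14.89 to 14.98 in Apc, 14.85 to 14.94 in Myc and 13.87 to 14.23 in ApcMyc. In whole liver, fewer cells of a type and less RNA per cell cannot be told apart.

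The interaction was called for 744 of 32115 probe sets (2.32%), 386 positive (1.20%) and 358 negative (1.11%). The called values had a median size of 1.40, between 0.83 and 4.25, and 688 of them reached 2-fold. The median over all 32115 was near 0 (0.003), the median size 0.34 and the median half-width of the 95% confidence interval 0.68. That interval is not adjusted for the number of tests. For a typical probe set, a call with 3 arrays per group therefore needed an interaction larger than 0.68. At an unadjusted p under 0.05 there were 6028. Scaling the arrays to a common median in place of quantile normalization changed the balance to 399 positive and 766 negative.

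The count depended on single arrays. It was 338 and 168 without ApcMyc replicates 1 and 2, 171 without Apc replicate 2, 180, 199 and 171 without Myc replicates 1, 2 and 3, and 151 and 336 without WT replicates 2 and 3. Without ApcMyc replicate 3 or Apc replicate 3 it was 904 and 921. Every one of the 744 kept its direction in all 12 leave-outs, and 115 were called in each of them, 77 positive and 38 negative. Of these 115, 39 carry a gene name.

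**Figure D1:**
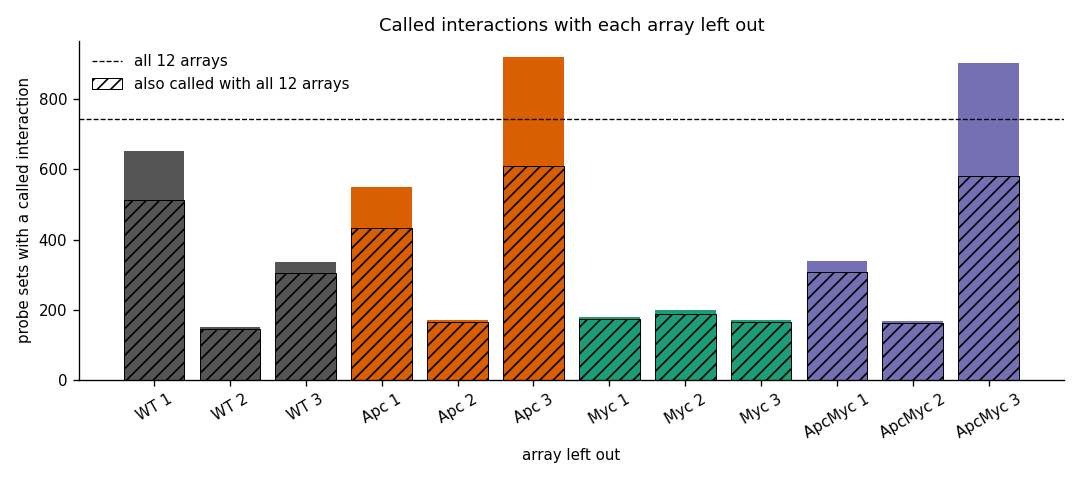
Number of probe sets with a called interaction (vertical axis) after each of the 12 arrays was left out (horizontal axis), coloured by group. The hatched part is shared with the 744 called on all 12 arrays (dashed line). Counts range from 151 without WT replicate 2 to 921 without Apc replicate 3.

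Interactions arose in different ways. Of the 744 called probe sets, 146 changed in the same direction in both backgrounds but less with Myc deleted, 75 changed in the same direction but more with Myc deleted, and 523 had responses of opposite sign. Of all 744, 289 had a response called only with Myc intact and 337 only with Myc deleted. Another 58 were called in both in the same direction, 52 in both in opposite directions and 8 in neither. A response without a call may still differ from 0. As a description made after the values were seen, each called probe set was assigned to the group whose removal left the other 3 group means closest together. The ApcMyc group stood apart in 273 (36.7%), the Apc group in 249 (33.5%), the Myc group in 114 (15.3%) and the WT group in 108 (14.5%).

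**Figure D2:**
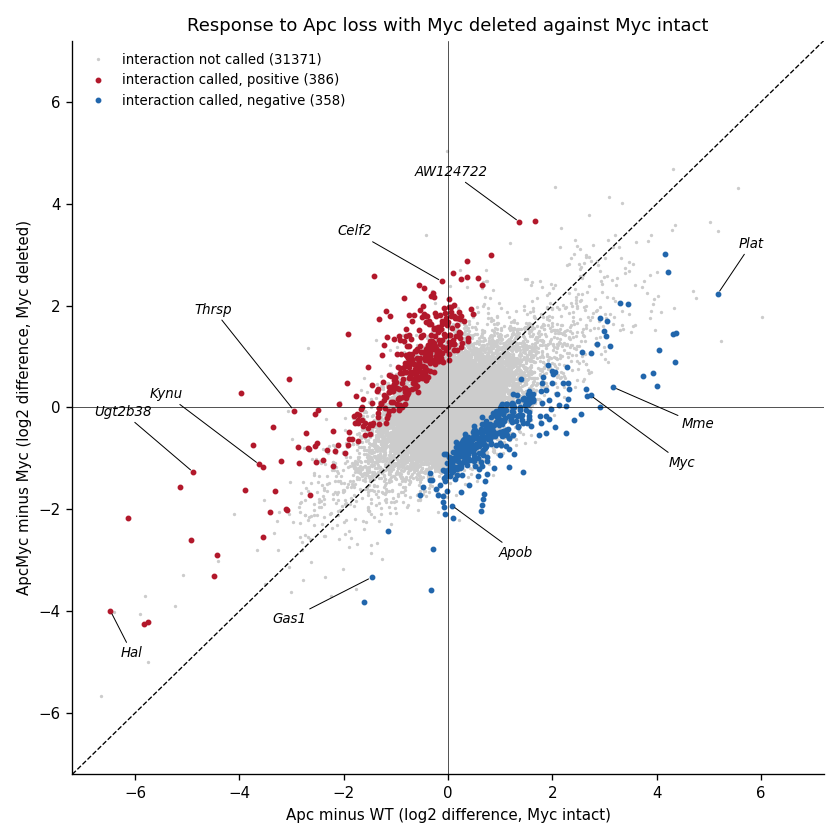
Response to Apc loss with Myc deleted (ApcMyc minus Myc, vertical axis, log2) against the response with Myc intact (Apc minus WT, horizontal axis, log2) for all 32115 probe sets. Red and blue points are the 386 positive and 358 negative called interactions; the dashed line marks equal responses. Called points lie along both axes as well as between the axes and the line.

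Gene names come only from lists the authors chose on these samples, mostly for ApcMyc against WT (2871 of 2975 listed probe sets), so a count over named genes is no independent evidence of direction. They name 2176 genes, each represented by its brightest probe set. Of these, 130 had a called interaction (5.97%), 64 positive and 66 negative. Other probe sets are given beside a gene where they bear on its call. Only probe sets on these lists carry a name, so unlisted probe sets of a gene are not seen. Counts of the probe sets of a gene below cover listed ones alone.

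Rises that were smaller or absent with Myc deleted included Myc, a membrane peptidase, a plasminogen activator, a collagen receptor and an amino acid carrier. The Myc probe set read 6.56, 5.30 and 6.35 in the WT arrays, 8.73, 9.09 and 8.58 in Apc, 4.89, 5.47 and 5.30 in Myc and 5.37, 5.49 and 5.51 in ApcMyc. Only the Apc arrays were high, and they did not overlap with any other group; the interaction was -2.49, SE 0.405, adjusted p = 0.0154. Which exons the floxed Myc allele loses is not stated, so this probe set may lie inside or outside it. Mme, a membrane peptidase that cleaves signalling peptides, read 5.85, 4.67 and 5.57 in the WT arrays, 9.10, 8.42 and 8.07 in Apc, 5.88, 5.40 and 5.64 in Myc and 5.89, 5.91 and 6.31 in ApcMyc. Here too the Apc arrays alone were high, with no overlap (interaction -2.77, SE 0.441, adjusted p = 0.0146). Both calls held in all 12 leave-outs. Myc was not called with pseudocount 1, on the deposited scores and on the quantile normalized scores (adjusted p = 0.0669 to 0.0806), nor was Mme with pseudocount 1, on the deposited scores and on the quantile normalized scores (adjusted p = 0.0595 to 0.0716).

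Plat, the tissue plasminogen activator, read 6.15, 5.49 and 5.18 in the WT arrays, 9.76, 11.35 and 11.21 in Apc, 5.47, 5.99 and 5.81 in Myc and 8.39, 7.93 and 7.63 in ApcMyc. It rose in both backgrounds, by 5.17 with Myc intact and by 2.23 with Myc deleted, and the ApcMyc arrays lay between the Apc arrays and the rest without overlap (interaction -2.94, SE 0.542, adjusted p = 0.0229). Slc1a4, a carrier of neutral amino acids such as serine and alanine, read 6.82, 6.76 and 6.75 in the WT arrays, 9.58, 9.35 and 9.96 in Apc, 6.21, 6.29 and 6.31 in Myc and 7.54, 7.25 and 7.77 in ApcMyc. It followed the same order, with a smaller rise when Myc was deleted (2.85 with Myc intact and 1.25 with Myc deleted; interaction -1.60, SE 0.26, adjusted p = 0.0154). All 3 of its probe sets were negative and 2 of them were called. Ddr1, a receptor kinase for collagen, responded by 2.65 with Myc intact and 0.22 with Myc deleted (interaction -2.43, SE 0.452, adjusted p = 0.0232). Snhg3, a noncoding host gene of small nucleolar RNAs, responded by 2.32 with Myc intact and 0.36 with Myc deleted (interaction -1.96, SE 0.433, adjusted p = 0.0391). Ywhag, a phosphoserine-binding adaptor, rose by 1.26 with Myc intact and stood at -0.91 with Myc deleted (adjusted p = 0.0725 for the latter; interaction -2.17, SE 0.438, adjusted p = 0.0277).

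Slc1a4 held in all 12 leave-outs and was not called on the deposited scores (adjusted p = 0.0506). Plat was not called without ApcMyc replicate 2, Apc replicate 2, Myc replicate 2, Myc replicate 3 or WT replicate 2 (adjusted p = 0.0522 to 0.0592). Ddr1 was not called without ApcMyc replicate 2, Apc replicate 2, Myc replicate 1, Myc replicate 2, Myc replicate 3 or WT replicate 2 (adjusted p = 0.0513 to 0.057). Ywhag was not called without ApcMyc replicate 1, ApcMyc replicate 2, Apc replicate 1, Apc replicate 2, Myc replicate 1, Myc replicate 3 or WT replicate 2 (adjusted p = 0.0518 to 0.0627). Snhg3 lost its call in 10 of the 12 leave-outs (adjusted p = 0.0578 to 0.0918) and kept it without Apc replicate 1 or ApcMyc replicate 3. These last 4 were also not called on the deposited scores, on the quantile normalized scores or with pseudocount 1 (adjusted p = 0.0656 to 0.113).

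Falls that were weaker or absent with Myc deleted included enzymes and regulators of lipid and amino acid metabolism. Thrsp, a regulator of fatty acid synthesis in liver, read 11.34, 12.31 and 12.06 in the WT arrays, 9.37, 8.54 and 8.94 in Apc, 12.89, 12.67 and 12.24 in Myc and 12.53, 13 and 12.08 in ApcMyc. Every Apc array was below every other array, while Myc and ApcMyc overlapped. With Myc deleted the response of Thrsp to Apc loss was -0.06 (95% confidence interval -0.73 to 0.61), against -2.95 with Myc intact, and the interaction was 2.89, SE 0.435, adjusted p = 0.0116. Its second probe set gave 2.96 (adjusted p = 0.0325). Kynu, kynureninase of tryptophan breakdown, read 10.45, 10.56 and 10.41 in the WT arrays, 6.75, 6.59 and 7.22 in Apc, 10.34, 10.49 and 10.18 in Myc and 9.23, 9.59 and 8.83 in ApcMyc. It fell in both backgrounds, by 3.62 and by 1.12 on the log2 scale, and the ApcMyc arrays lay between Apc and the rest (interaction 2.50, SE 0.302, adjusted p = 0.00575). The dimmer Kynu probe set gave 1.03 (adjusted p = 0.142). The Thrsp and Kynu calls held in every leave-out and every other alternative run.

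Ubtf, a factor of ribosomal RNA transcription, read 12.86, 12.94 and 12.94 in the WT arrays, 10.10, 10.50 and 10.53 in Apc, 13.07, 13.04 and 13.14 in Myc and 12.04, 12.03 and 11.97 in ApcMyc. No groups overlapped, with Apc lowest and ApcMyc next (interaction 1.46, SE 0.212, adjusted p = 0.0106). Nudt7, a peroxisomal enzyme that breaks down coenzyme A, read 13.15, 13.11 and 13.05 in the WT arrays, 10.14, 10.40 and 11.12 in Apc, 12.97, 12.81 and 12.47 in Myc and 11.98, 12.30 and 11.73 in ApcMyc. The fall passed the test with Myc intact (-2.55) and not with Myc deleted (-0.75, adjusted p = 0.0612), and the interaction was 1.80, SE 0.344, adjusted p = 0.0247. A second Nudt7 probe set was called at 2.14 and held in all leave-outs, and the third stood at 0.71 (adjusted p = 0.311). Nudt7 was not called without ApcMyc replicate 2, Apc replicate 2, Myc replicate 2, Myc replicate 3 or WT replicate 2 (adjusted p = 0.0557 to 0.0618), nor was it called with pseudocount 1 and on the quantile normalized scores (adjusted p = 0.0585 to 0.0623). Kdr, a receptor for vascular growth factors on endothelial cells, fell by 0.95 on the log2 scale with Myc intact and stood at 0.80 with Myc deleted (adjusted p = 0.0595; interaction 1.75, SE 0.364, adjusted p = 0.031). Kdr was not called without ApcMyc replicate 1, ApcMyc replicate 2, Apc replicate 2, Myc replicate 1, Myc replicate 2, Myc replicate 3 or WT replicate 2 (adjusted p = 0.0521 to 0.0748), nor was it called with pseudocount 1, on the deposited scores and on the quantile normalized scores (adjusted p = 0.0681 to 0.0774).

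Car3, a carbonic anhydrase abundant in liver, falls outside the naming rule because its brightest probe set was not called, and was chosen after its values were seen. All 4 Car3 probe sets were positive: 4.25, 3.62 and 1.75 were called, and the brightest stood at 1.08 (adjusted p = 0.0649). The probe set at 4.25, the largest called interaction by size, read 9.50, 10.73 and 11.10 in the WT arrays, 6.13, 5.91 and 7.39 in Apc, 5.83, 4.72 and 5.53 in Myc and 5.94, 5.52 and 5.48 in ApcMyc. The 3 WT arrays were high, and the Apc arrays overlapped with ApcMyc, as did Myc, so WT is the group that stood apart. The size of the Car3 interaction fell as the level of the probe set rose, across these 4 probe sets.

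**Figure D3:**
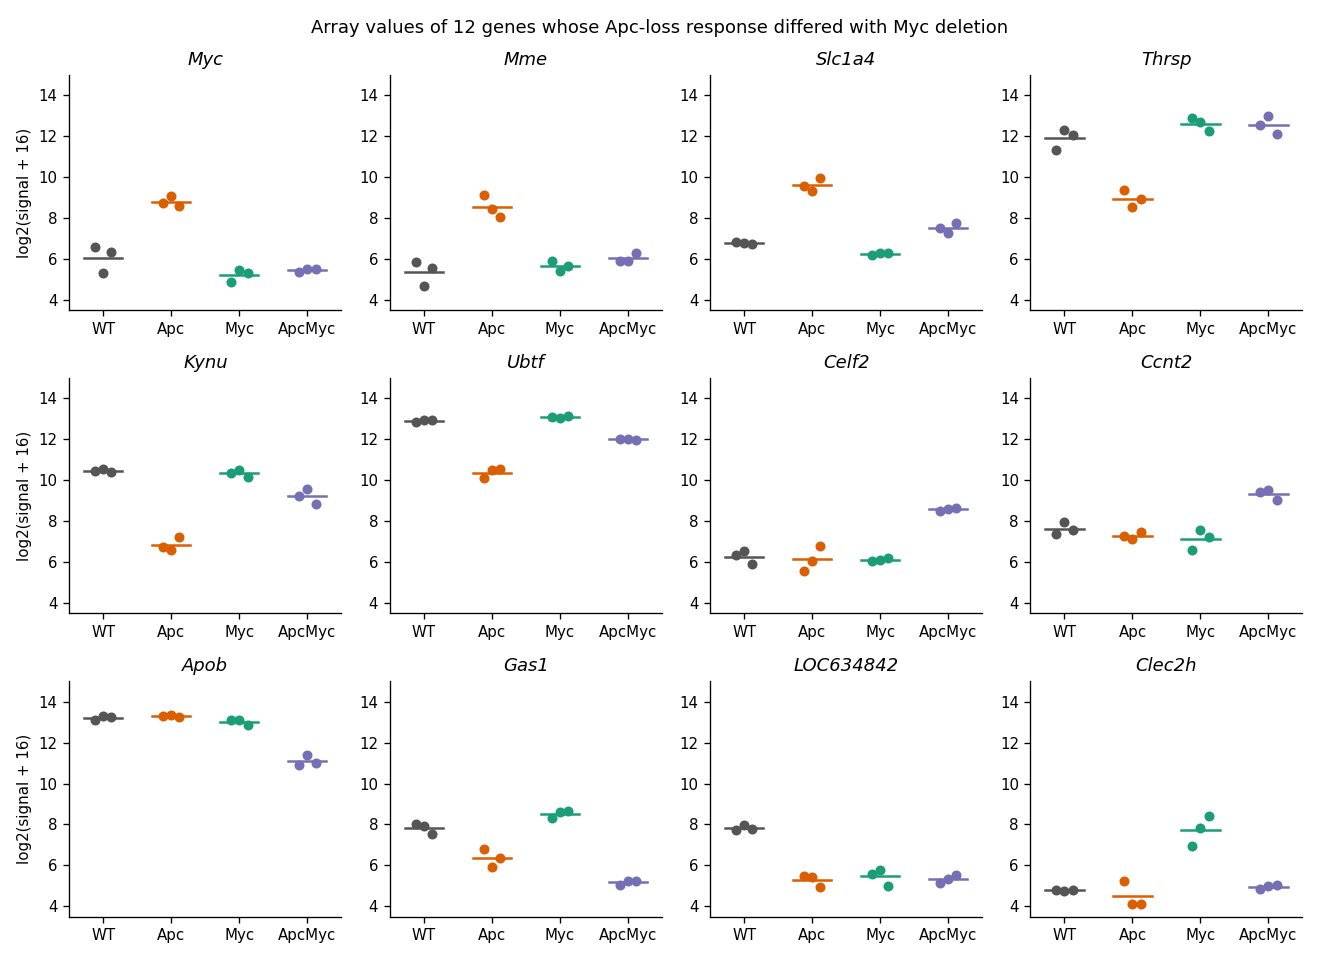
Level of 12 genes on each array (vertical axis, log2 of normalized signal plus 16), with 1 point per array, a line at the group mean and the 4 groups along the horizontal axis. In Myc, Mme and Slc1a4 the Apc arrays are highest, in Thrsp, Kynu and Ubtf they are lowest, in Celf2, Ccnt2, Apob and Gas1 the ApcMyc arrays stand apart, in LOC634842 the WT arrays do and in Clec2h the Myc arrays do.

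For other genes the ApcMyc livers stood apart, with levels above or below those of the other 3 groups. For some of them, such as AW124722 and Gas1, the Apc livers also differed from WT. Celf2, an RNA-binding regulator of splicing, read 6.35, 6.54 and 5.89 in the WT arrays, 5.56, 6.05 and 6.80 in Apc, 6.04, 6.10 and 6.19 in Myc and 8.51, 8.61 and 8.64 in ApcMyc. The ApcMyc arrays alone were high, and WT, Apc and Myc overlapped (interaction 2.60, SE 0.374, adjusted p = 0.0103). Ccnt2, a cyclin of the kinase that releases paused RNA polymerase, read 7.36, 7.97 and 7.58 in the WT arrays, 7.30, 7.11 and 7.49 in Apc, 6.62, 7.56 and 7.25 in Myc and 9.41, 9.51 and 9.05 in ApcMyc. It showed the same arrangement (interaction 2.51, SE 0.348, adjusted p = 0.00827), as did Ppp4r3a, a regulatory subunit of a protein phosphatase, with responses of -0.46 with Myc intact and 1.83 with Myc deleted (interaction 2.29, SE 0.302, adjusted p = 0.00678). Slfn4, a myeloid gene of the Schlafen family, had an interaction of 2.51, SE 0.46, adjusted p = 0.0226. Asap2, which acts on small GTPases of the Arf family, stood at 2.36, SE 0.454, adjusted p = 0.0249. The transcripts AW124722 (2.28, adjusted p = 0.0134) and G530011O06Rik (2.21, adjusted p = 0.0369) were also positive, and AW124722 rose in both backgrounds.

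Celf2, Ccnt2 and Ppp4r3a held in every leave-out and other alternative run. AW124722 held in every leave-out and was not called on the deposited scores and on the quantile normalized scores (adjusted p = 0.0512 to 0.0546). Slfn4 was not called without Myc replicate 2, Myc replicate 3 or WT replicate 2 (adjusted p = 0.0549 to 0.0592). Asap2 was not called without ApcMyc replicate 1, ApcMyc replicate 2, Apc replicate 2, Myc replicate 1, Myc replicate 2, Myc replicate 3 or WT replicate 2 (adjusted p = 0.0518 to 0.0619). G530011O06Rik lost its call in 10 of the 12 leave-outs (adjusted p = 0.0513 to 0.0794) and kept it without Apc replicate 3 or Myc replicate 1. The last 3 were also not called on the deposited scores, on the quantile normalized scores or with pseudocount 1 (adjusted p = 0.0672 to 0.419), and G530011O06Rik not with the replicate block (0.0589). Ywhab, an adaptor of the same family as Ywhag, is outside the naming rule and was chosen after its values were seen: its 4 probe sets were all called, at 1.18, 1.51, 1.56 and 1.22, with responses near 0 when Myc was intact (-0.11 to 0.23) and rises of 1.07 to 1.75 when Myc was deleted. Tcf7l2, a TCF partner of beta-catenin and chosen in the same way, had responses of -0.37 with Myc intact and 1.69 with Myc deleted (interaction 2.06, adjusted p = 0.0092), and was called in all leave-outs.

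The interaction was negative, with low ApcMyc arrays, for genes that included secreted and lipid-handling proteins of the hepatocyte. Apob, the structural protein of very low density lipoprotein, read 13.08, 13.28 and 13.27 in the WT arrays, 13.28, 13.34 and 13.23 in Apc, 13.10, 13.12 and 12.86 in Myc and 10.89, 11.38 and 11.02 in ApcMyc. Every ApcMyc array was below every WT, Apc and Myc array (interaction -2.01, SE 0.229, adjusted p = 0.00439). Apobec1, the enzyme that edits Apob messenger RNA, moved the other way, at 8.36, 7.90 and 8.02 in the WT arrays, 6.69, 7.21 and 7.95 in Apc, 7.38, 7.81 and 7.81 in Myc and 9.06, 8.96 and 9.16 in ApcMyc. Its ApcMyc arrays were above all others (interaction 2.2, SE 0.38, adjusted p = 0.019). Fabp1, the fatty acid binding protein of liver, read 13.87, 13.79 and 13.71 in the WT arrays, 13.34, 13.87 and 13.87 in Apc, 13.92, 13.75 and 13.79 in Myc and 11.96, 11.46 and 12.79 in ApcMyc, with low ApcMyc arrays that spread more than the other groups (interaction -1.65, SE 0.387, adjusted p = 0.0473; second probe set -1.18, adjusted p = 0.0277). Mup3, of the major urinary proteins, fell in both backgrounds, -1.61 with Myc intact and -3.82 with Myc deleted (interaction -2.22, SE 0.363, adjusted p = 0.0161). Members of the Mup family are nearly identical, so its identity is uncertain.

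Gas1, a membrane protein linked to growth arrest, read 8.04, 7.91 and 7.52 in the WT arrays, 6.78, 5.94 and 6.35 in Apc, 8.29, 8.58 and 8.66 in Myc and 5.04, 5.24 and 5.25 in ApcMyc. On this probe set it fell in both backgrounds and more with Myc deleted (interaction -1.87, SE 0.308, adjusted p = 0.0164), while its other probe set stood at -0.45 (adjusted p = 0.391). Ap2b1, a subunit of the clathrin adaptor, responded by 0.10 with Myc intact and -2.18 with Myc deleted (interaction -2.28, SE 0.24, adjusted p = 0.00283), while its other probe set stood at -0.31 (adjusted p = 0.545). Apob, Mup3, Gas1 and Ap2b1 held in all 12 leave-outs; on the deposited scores Apob (adjusted p = 0.0799) and Mup3 (0.104) were not called. Apobec1 was not called without Apc replicate 2 (adjusted p = 0.0502), nor was it called with pseudocount 1, on the deposited scores and on the quantile normalized scores (adjusted p = 0.0501 to 0.0554). Fabp1 lost its call in 10 of the 12 leave-outs (adjusted p = 0.0686 to 0.103) and kept it without Apc replicate 1 or ApcMyc replicate 3, and it was not called with pseudocount 1, with normalization within title styles, with the replicate block, with robust variances, on the deposited scores and on the quantile normalized scores (adjusted p = 0.0506 to 0.299). The summed level of the hepatocyte markers, which include Apob, was lower in ApcMyc than in every other group, while Serpina1a had an interaction of -0.12 (adjusted p = 0.86), which was 0.176 on the deposited scores. Apoa1 read 13.92 on all 6 WT and Apc arrays, the top value that quantile normalization gives, so its interaction is not used here. The part of a change in the share of hepatocyte RNA in the low ApcMyc levels was not tested.

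For a smaller group of genes the WT livers stood apart from the other 3 groups. LOC634842, an unmatched name, read 7.73, 7.98 and 7.79 in the WT arrays, 5.47, 5.43 and 4.92 in Apc, 5.59, 5.78 and 5.01 in Myc and 5.14, 5.34 and 5.55 in ApcMyc. The 3 WT arrays were high and the other 9 overlapped (interaction 2.44, SE 0.314, adjusted p = 0.00678). LOC668215 (2.46, adjusted p = 0.0326) and 9130409I23Rik (2.38, adjusted p = 0.0462) also had their highest levels in WT. Ugt2b38, a glucuronosyltransferase with close relatives, read 9.85, 8.80 and 9.76 in the WT arrays, 4.90, 4.47 and 4.39 in Apc, 5.21, 5.19 and 8.13 in Myc and 4.76, 4.94 and 5.02 in ApcMyc. Myc replicate 3 was far above the other Myc arrays (interaction 3.62, SE 0.858, adjusted p = 0.0484). On the low side, Psat1, an enzyme of serine synthesis, read 5.99, 4.17 and 5.06 in the WT arrays, 7.74, 7.87 and 7.23 in Apc, 6.29, 6.75 and 6.77 in Myc and 6.53, 6.12 and 6.76 in ApcMyc, with WT lowest and Apc highest (interaction -2.68, SE 0.52, adjusted p = 0.0254). Ildr2, a membrane receptor of the immunoglobulin type, responded by 1.88 with Myc intact and -0.18 with Myc deleted (interaction -2.06, SE 0.374, adjusted p = 0.022), and BC048546 by 1.88 with Myc intact and -0.51 with Myc deleted (interaction -2.39, SE 0.507, adjusted p = 0.0332).

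LOC634842 held in every leave-out and other alternative. LOC668215 was not called without Apc replicate 1, Apc replicate 2, Myc replicate 1, Myc replicate 2, Myc replicate 3, WT replicate 2 or WT replicate 3 (adjusted p = 0.0628 to 0.0803). 9130409I23Rik lost its call in 10 of the 12 leave-outs (adjusted p = 0.0561 to 0.106) and kept it without WT replicate 3 or Apc replicate 3. Ugt2b38 lost its call in 11 of the 12 leave-outs (adjusted p = 0.0717 to 0.105) and kept it without Myc replicate 3. Psat1 was not called without ApcMyc replicate 2, Apc replicate 2, Myc replicate 1, Myc replicate 2, Myc replicate 3 or WT replicate 3 (adjusted p = 0.0514 to 0.0648). Ildr2 was not called without ApcMyc replicate 2, Myc replicate 1, Myc replicate 2, Myc replicate 3 or WT replicate 2 (adjusted p = 0.0503 to 0.0562). BC048546 lost its call in 8 of the 12 leave-outs (adjusted p = 0.0504 to 0.0829) and kept it without WT replicate 1, Apc replicate 1, Apc replicate 3 or ApcMyc replicate 3. These 6 were also not called on either form of the scores or with pseudocount 1 (adjusted p = 0.0501 to 0.158), and 9130409I23Rik, Ugt2b38 and BC048546 not with the replicate block (0.0553 to 0.0672). With normalization within title styles the interaction of 9130409I23Rik (adjusted p = 0.0596) and the interaction of Ugt2b38 (0.0775) were not called either, nor was 9130409I23Rik with median scaling (0.0525) or Ugt2b38 with robust variances (0.052). In this class the level in Myc livers is compared with WT across the title styles, and a style difference and Myc deletion cannot be told apart there. Clec2h, a C-type lectin, was the gene among the largest called interactions described here for which the Myc group stood apart: it read 4.80, 4.73 and 4.79 in the WT arrays, 5.25, 4.10 and 4.10 in Apc, 6.95, 7.83 and 8.40 in Myc and 4.83, 4.97 and 5.03 in ApcMyc, with the Myc arrays alone high (interaction -2.49, SE 0.491, adjusted p = 0.0267). Clec2h was not called without ApcMyc replicate 1, ApcMyc replicate 2, Apc replicate 2, Myc replicate 2, Myc replicate 3, WT replicate 2 or WT replicate 3 (adjusted p = 0.0504 to 0.0661), nor was it called with pseudocount 1, on the deposited scores and on the quantile normalized scores (adjusted p = 0.329 to 0.51).

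**Figure D4:**
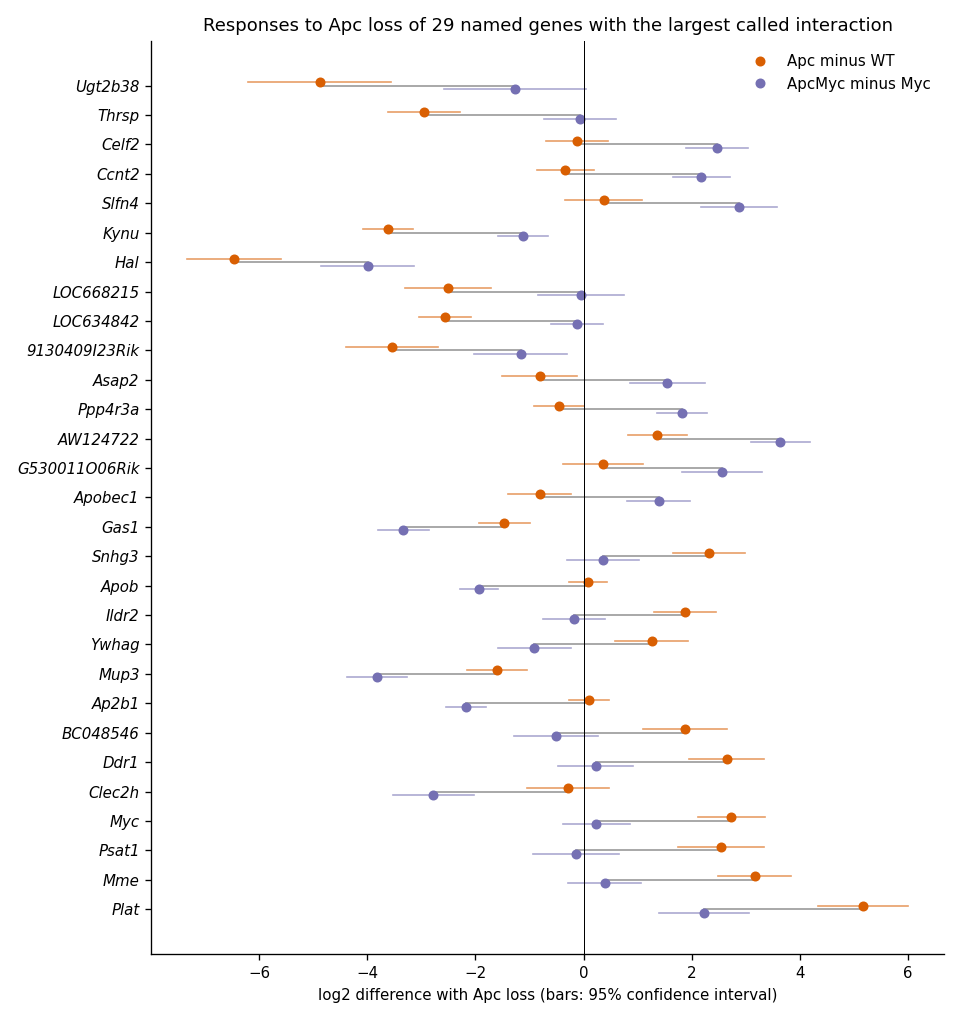
Response to Apc loss (horizontal axis, log2 difference) with Myc intact (orange, Apc minus WT) and with Myc deleted (purple, ApcMyc minus Myc) for 15 named genes with the largest positive and 14 with the largest negative called interactions. Bars are 95% confidence intervals of the fit over 12 arrays. For Thrsp, Mme, Myc and Ddr1 the purple interval includes 0 and the orange one does not; for Celf2, Ccnt2, Slfn4, Apob and Ap2b1 it is the reverse.

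Genes of the pericentral zone rose with Apc loss in both backgrounds, with mostly negative interactions. Of 17 measured pericentral genes, 4 had a called interaction, all negative (1.11% of all probe sets were called negative, and 5.97% of named genes called either way), and 14 of 17 values were below 0, with a median of -0.63 against 0.00 over all probe sets. With Myc intact all 17 rose (7.87% of all probe sets and 551 of 2176 named genes did). With Myc deleted 16 rose (6.64% and 499 of the named genes), and the median responses were 2.40 and 1.78. Measured genes come from lists the authors chose on these arrays, so a high share with a response was favoured in advance. Besides Slc1a4, the genes with a called interaction were Slc1a2, a glutamate carrier, Rhbg, a channel for ammonium, and Cldn2, a tight junction protein. Slc1a2 read 9.48, 9.24 and 9.71 in the WT arrays, 12.94, 13.12 and 12.73 in Apc, 10.30, 10.01 and 10.48 in Myc and 12.48, 12.44 and 11.98 in ApcMyc. All Apc and ApcMyc arrays were high and all 5 Slc1a2 probe sets had a negative interaction, 1 of them called (-1.42, SE 0.282, adjusted p = 0.0272). Rhbg read 7.94, 7.66 and 7.61 in the WT arrays, 12.07, 11.75 and 11.83 in Apc, 8.76, 9.04 and 8.63 in Myc and 11.68, 11.78 and 12.03 in ApcMyc. The Apc and ApcMyc arrays overlapped, and the Myc arrays lay above the WT arrays (interaction -1.13, SE 0.245, adjusted p = 0.0363). Cldn2 rose by 1.44 with Myc intact and stood at 0.17 with Myc deleted (interaction -1.28, SE 0.301, adjusted p = 0.0475). Its group means were 6.93 in WT, 8.37 in Apc, 8.26 in Myc and 8.42 in ApcMyc. WT was thus the low group, and ApcMyc was as high as Apc. For Cldn2 and Rhbg, Myc against WT runs across the title styles, where style and Myc deletion cannot be told apart. Slc1a2 was not called without ApcMyc replicate 2, Apc replicate 2, Myc replicate 1, Myc replicate 3 or WT replicate 2 (adjusted p = 0.0522 to 0.0727). Rhbg lost its call in 9 of the 12 leave-outs (adjusted p = 0.0588 to 0.0881) and kept it without WT replicate 1, Apc replicate 3 or ApcMyc replicate 3. Cldn2 lost its call in 11 of the 12 leave-outs (adjusted p = 0.0647 to 0.113) and kept it without Apc replicate 3. Slc1a2 was also not called with pseudocount 1 and on the quantile normalized scores (adjusted p = 0.0604 to 0.0631), Rhbg not with pseudocount 1, on the deposited scores and on the quantile normalized scores (adjusted p = 0.0624 to 0.0696) and Cldn2 not with pseudocount 1, with normalization within title styles, with the replicate block, with robust variances, on the deposited scores and on the quantile normalized scores (adjusted p = 0.0501 to 0.0827). Over the leave-outs between 1 and 4 pericentral genes were called, and 7 with median scaling.

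Glul, the glutamine synthetase of the cells next to the central vein, read 10.93, 11.10 and 11.15 in the WT arrays, 13.51, 13.47 and 13.44 in Apc, 11.34, 11.31 and 11.50 in Myc and 12.93, 12.98 and 13.15 in ApcMyc. Each group was tight and the ApcMyc arrays lay just below the Apc arrays; the interaction of -0.77 had a 95% confidence interval of -1.20 to -0.34 and an adjusted p of 0.0658, and it was called in 6 of the 11 other alternatives and in no leave-out. Among 12 measured Wnt targets none was called (4 at an unadjusted p under 0.05, all negative; 0 in every leave-out and every other alternative that kept the brightest probe set), 10 of 12 were below 0 and the median was -0.43. Over all named genes 5.97% were called and 1127 of 2176 were below 0. Of all 32115 probe sets, 6028 had an unadjusted p under 0.05. The median response of the Wnt targets was 2.32 with Myc intact and 1.61 with Myc deleted. In either background 10 of the 12 rose (551 and 499 of the 2176 named genes did). Axin2, the feedback inhibitor that reports Wnt activity, stood at -0.92 (95% confidence interval -1.70 to -0.14), and its dimmer probe set was called at -1.32 (adjusted p = 0.0146). On the brighter probe set the Axin2 means were 6.68 in WT, 9.45 in Apc, 7.47 in Myc and 9.32 in ApcMyc. Tnfrsf19, a receptor of the tumour necrosis factor family, stood at -1.06 (adjusted p = 0.133), with other probe sets at -1.49 (called, adjusted p = 0.0229) and -1.13 (adjusted p = 0.161). With the mean of the probe sets, the interaction of Axin2 (-1.12, adjusted p = 0.0464) and the interaction of Tnfrsf19 (-1.23, adjusted p = 0.0442) were called. Sp5 (-0.87) and the receptor Lgr5 (-0.63) were not called. Lgr5 means were 6.70 in WT, 9.09 in Apc, 7.27 in Myc and 9.04 in ApcMyc. Sp5 means were 5.875, 8.91, 6.10 and 8.27 in the same order. A p that misses the threshold does not show that these responses were alike with and without Myc.

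Periportal genes fell in both backgrounds, and the falls were mostly smaller with Myc deleted. Of 23 measured periportal genes, 4 had a called interaction, all positive (1.20% of all probe sets were called positive, and 5.97% of named genes called either way), and 19 of 23 were above 0, with a median of 0.97. Their median response was -3.02 with Myc intact and -1.99 with Myc deleted. In either background 22 of 23 fell (7.68% and 6.76% of all probe sets did, and 444 and 471 of 2176 named genes). The choice of named genes on these arrays favoured such a high share. Hal, which removes the amino group of histidine, read 11.58, 11.33 and 11.57 in the WT arrays, 5.95, 4.89 and 4.21 in Apc, 11.48, 11.37 and 11.42 in Myc and 7.22, 8.25 and 6.81 in ApcMyc. The ApcMyc arrays lay between the Apc arrays and the rest without overlap (interaction 2.48, SE 0.562, adjusted p = 0.0424). Gldc, of glycine cleavage, read 9.81, 10.14 and 10.12 in the WT arrays, 7.17, 6.88 and 6.69 in Apc, 9.47, 9.65 and 9.52 in Myc and 7.66, 7.41 and 7.61 in ApcMyc, in the same order (interaction 1.12, SE 0.238, adjusted p = 0.0331). Ftcd, which takes over histidine carbon into folate, had an interaction of 1.06, SE 0.25, adjusted p = 0.0475. Pigr, which carries immunoglobulin A into bile, had one of 0.92, SE 0.217, adjusted p = 0.0475. Hal lost its call in 10 of the 12 leave-outs (adjusted p = 0.0541 to 0.091) and kept it without Apc replicate 1 or ApcMyc replicate 3. Gldc lost its call in 8 of the 12 leave-outs (adjusted p = 0.0557 to 0.0831) and kept it without WT replicate 1, Apc replicate 1, Apc replicate 3 or ApcMyc replicate 3. Ftcd lost its call in 10 of the 12 leave-outs (adjusted p = 0.0557 to 0.11) and kept it without Apc replicate 3 or ApcMyc replicate 3. Pigr lost its call in 10 of the 12 leave-outs (adjusted p = 0.0635 to 0.114) and kept it without Apc replicate 3 or ApcMyc replicate 3. Hal was also not called with pseudocount 1, on the deposited scores and on the quantile normalized scores (adjusted p = 0.128 to 0.151), Gldc not with median scaling, with pseudocount 1, with the replicate block, on the deposited scores and on the quantile normalized scores (adjusted p = 0.0518 to 0.0669), Ftcd not with median scaling, with pseudocount 1, with robust variances, on the deposited scores and on the quantile normalized scores (adjusted p = 0.0505 to 0.0827) and Pigr not with median scaling, with pseudocount 1, with the replicate block, with robust variances and on the quantile normalized scores (adjusted p = 0.0506 to 0.0743). The number of periportal genes called ran from 0 to 7 over the leave-outs and from 0 to 8 over the other alternatives.

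The list of urea cycle and amino acid breakdown genes overlaps the periportal one. Of its 11 measured members, 3 were called, against 5.97% of named genes, all positive and all named above (Hal, Gldc and Ftcd), 10 were above 0 and the median was 1.12; over the leave-outs 0 to 6 were called. Gls2, the liver glutaminase, read 10.91, 11.89 and 11.33 in the WT arrays, 6.04, 4.36 and 4.54 in Apc, 11.56, 11.95 and 11.32 in Myc and 8.11, 7.67 and 6.97 in ApcMyc. The ApcMyc arrays were again between Apc and the rest, with an interaction that was not called (2.37, SE 0.594, adjusted p = 0.0597). Uroc1 and Amdhd1, also of histidine breakdown, each had a called probe set that was not the brightest, Uroc1 at 2.99 (adjusted p = 0.0154) and Amdhd1 at 1.53 (adjusted p = 0.0116), while their brightest stood at 0.69 (adjusted p = 0.153) and 2.10 (adjusted p = 0.0744). Arg1 (1.71) and Sds (1.85) were not called. Otc of the urea cycle (0.50) was not called, and Prodh2, of hydroxyproline breakdown, stood below 0 (-0.61, adjusted p = 0.233). All 4 measured genes of tryptophan breakdown were above 0, with Kynu called and Haao (0.79), Kyat1 (0.64) and Afmid (0.50) not. Cyp2f2, a periportal cytochrome, read 13.27, 13.29 and 13.29 in the WT arrays, 10.54, 8.27 and 7.79 in Apc, 13.40, 13.40 and 13.43 in Myc and 10.25, 10.66 and 10.29 in ApcMyc. Apc replicate 1 was well above the other Apc arrays (interaction 1.41, SE 0.709, adjusted p = 0.31), and without it the interaction of Cyp2f2 was called (2.24, adjusted p = 0.00628).

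**Figure D5:**
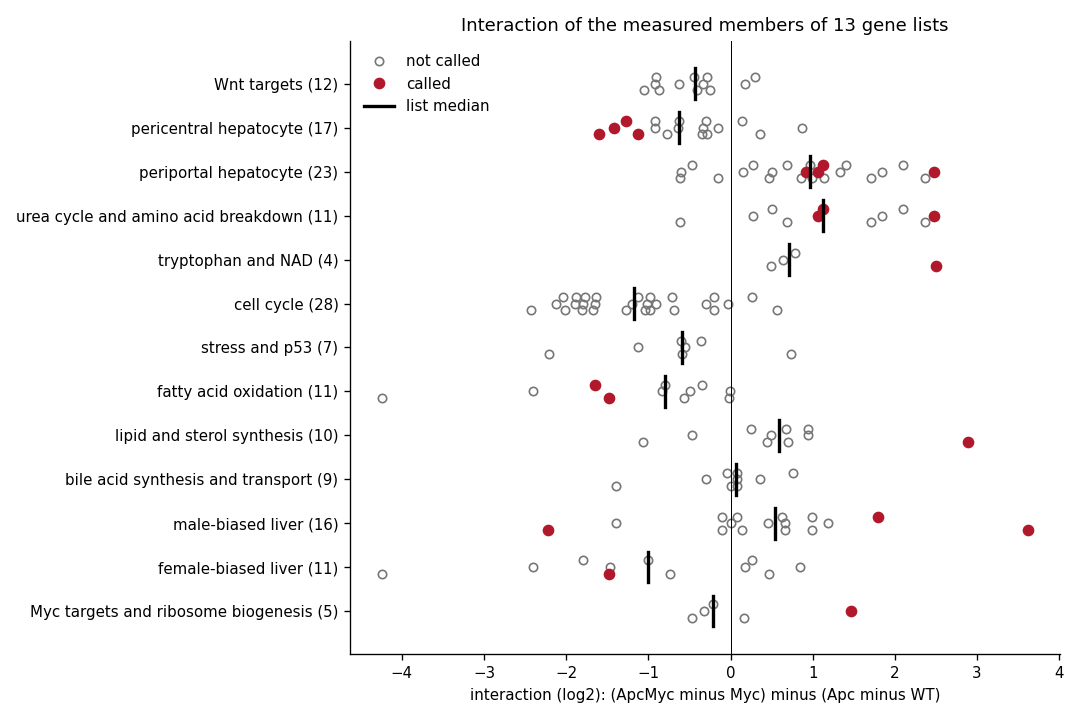
Interaction (horizontal axis, log2) of each measured member of 13 gene lists, with the number measured in brackets. Filled points are called, open points are not, and the bar is the list median. Pericentral, cell cycle and fatty acid oxidation members lie mostly below 0 and periportal and amino acid members mostly above it.

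Most cell cycle genes rose with Apc loss when Myc was intact, fewer passed the test when it was deleted, and no interaction was called. Of 28 measured cell cycle genes, 26 rose with Myc intact (7.87% of all probe sets, 551 of 2176 named genes). With Myc deleted 14 rose (6.64%, and 499 of the named genes), and the medians were 2.73 and 1.5. The choice of named genes on these arrays favoured a high share with a response. None of the 28 interactions was called in limma, 9 were below an unadjusted p of 0.05, all negative, and 26 of 28 were below 0 with a median of -1.17. Over all named genes 5.97% were called, so none among 28 says little, and 1127 of 2176 were below 0. Of all 32115 probe sets, 6028 were below an unadjusted p of 0.05. Over the leave-outs 0 to 2 were called, and 4 with pseudocount 64. Aurka, a kinase of mitosis, read 5.59, 5.50 and 5.17 in the WT arrays, 8.06, 8.42 and 8.56 in Apc, 5.32, 4.90 and 5.81 in Myc and 6.98, 5.54 and 6.65 in ApcMyc. The Apc arrays were high and tight, and ApcMyc replicate 2 lay among the Myc arrays (interaction -1.88, SE 0.469, adjusted p = 0.0595). Cdca3 read 6.53, 5.90 and 5.89 in the WT arrays, 9.14, 9.66 and 10.04 in Apc, 6.14, 5.49 and 5.92 in Myc and 7.95, 6.02 and 8.04 in ApcMyc, and again ApcMyc replicate 2 was near the Myc arrays (interaction -2.02, SE 0.634, adjusted p = 0.111). The same array was the lowest ApcMyc array for Stmn1 (-2.12) and Hmmr (-2.04), which act on microtubules. The helicase subunit Mcm6 had responses of 2.57 and 2.53 and an interaction of -0.03. Ccnd1, the cyclin of early cell cycle entry, stood at -0.90 (95% confidence interval -2.12 to 0.31). Cdkn1a, the inhibitor induced by p53, read 5.63, 4.36 and 6.37 in the WT arrays, 9.69, 9.45 and 9.48 in Apc, 6.46, 6.65 and 6.81 in Myc and 8.87, 7.82 and 8.84 in ApcMyc. The Apc arrays were highest, then ApcMyc, with no overlap (interaction -2.21, SE 0.582, adjusted p = 0.0681; dimmer probe set -1.08, adjusted p = 0.101). Among 7 measured stress and p53 genes none was called, 2 were below an unadjusted p of 0.05 and the median was -0.59. That median ran from -0.85 to -0.22 when 1 array was left out. Of these genes 0 to 1 were called over the leave-outs and up to 2 in other alternatives. The shares over all named genes and probe sets given above for the cell cycle apply here too.

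Fatty acid oxidation genes had interactions below 0 in 11 of 11 members (10 of 11 on the deposited scores or with normalization within title styles), with a median of -0.80. Of them 2 were called, against 5.97% of named genes, and 1 to 4 over the other alternatives. Acot4, a peroxisomal thioesterase of acyl-CoA, read 6.22, 5.87 and 5.83 in the WT arrays, 8.73, 8.36 and 8.54 in Apc, 7.21, 6.99 and 7.04 in Myc and 8.28, 8.18 and 8.04 in ApcMyc. Its Apc arrays were highest and the ApcMyc arrays were between Apc and Myc (interaction -1.48, SE 0.234, adjusted p = 0.0145). The Myc arrays of Acot4 lay above its WT arrays, a comparison across the title styles. Its dimmer probe set stood at 0.02 (adjusted p = 0.976). With the mean of its 2 probe sets Acot4 was not called (-0.73, adjusted p = 0.117). The other called member was Fabp1, with responses of -0.10 with Myc intact and -1.75 with Myc deleted. Its Myc replicate 1 read 13.92, the top value that quantile normalization gives. WT replicate 1 and Apc replicates 2 and 3 read 13.865, so a difference between WT and Apc may be compressed. The second, less bright Fabp1 probe set responded by -0.06 and -1.24. Acot3, a relative of Acot4, read 5.64, 5.84 and 4.27 in the WT arrays, 9.59, 10.34 and 9.89 in Apc, 6.89, 6.28 and 7.78 in Myc and 9.56, 8.76 and 9.49 in ApcMyc and was not called (-2.40, SE 0.615, adjusted p = 0.0631). Cyp4a14, a fatty acid hydroxylase, read 6.34, 5.91 and 5.23 in the WT arrays, 10.00, 12.77 and 12.72 in Apc, 10.64, 7.54 and 10.25 in Myc and 12.19, 9.73 and 11.81 in ApcMyc. All Myc arrays were above the WT arrays, a comparison across the title styles, and overlapped with Apc and ApcMyc. The interaction of Cyp4a14 was the largest by size among measured list members without a call (-4.24, SE 1.27, adjusted p = 0.0988). Among the oxidation enzymes Acsl1 and Acaa1a stood just below 0 and Cpt1a at -0.49, and none of these was called. Lipid and sterol synthesis had 1 called member of 10, Thrsp, with 8 above 0 and a median of 0.59; Srebf1, the factor that drives fatty acid synthesis genes, stood at 0.95 (adjusted p = 0.295).

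Lists of genes that differ between the sexes in mouse liver held calls in both directions. Of 16 male-biased genes 2 were called positive (Ugt2b38 and Nudt7) and 1 negative (Mup3), with a median of 0.54, and of 11 female-biased genes 1 was called negative (Acot4), with a median of -1.01. Over all named genes 5.97% were called, so 1 of 11 is close to that share. Bile acid genes had no call among 9 (none below an unadjusted p of 0.05, and none in any leave-out or other alternative), with a median of 0.07 that was -0.24 with median scaling; Cyp8b1 fell by 5.75 and by 4.99 on the log2 scale in the 2 backgrounds (interaction 0.76). Among 15 xenobiotic genes only Ugt2b38 was called, with a median of -0.53. Of 6 fetal liver and liver tumour genes Plat was called; Afp, the fetal albumin relative, rose by 5.55 and 4.31 (interaction -1.24, adjusted p = 0.37), and its other 3 probe sets stood at -2.60, -1.69 and -1.13, none called. Apc replicate 1 (9.78) was below the other Apc arrays (12.14 and 11.94), and without it the interaction of Afp was called (-1.98, adjusted p = 0.0405). Ly6d, a surface protein, read 6.27, 5.93 and 5.80 in the WT arrays, 9.92, 11.66 and 12.10 in Apc, 6.24, 5.89 and 5.78 in Myc and 6.16, 5.77 and 9.89 in ApcMyc. All 3 Apc arrays and ApcMyc replicate 3 were high, and without that array the interaction of Ly6d was called (-5.26, adjusted p = 0.0105, against -3.93, SE 1.20, adjusted p = 0.103 on all arrays). Of 5 Myc target and ribosome biogenesis genes Ubtf alone was called, and Ncl (-0.21) and Odc1 (-0.47), both targets of Myc, were not.

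Markers of other liver cells gave 1 call, Kdr, among 7 endothelial genes, and none among 5 macrophage, 3 neutrophil, 4 T and NK cell, 1 B cell, 3 stellate cell, 2 bile duct and 5 red cell genes measured (at an unadjusted p under 0.05 these had 2, 0, 1, 1, 0, 0 and 2). With 5.97% of named genes and 2.32% of all probe sets called, counts in lists this small say little about these cells. Summed marker levels were higher in Myc and ApcMyc than in WT and Apc for the endothelial list (9.36 to 10.5 in WT, 9.4 to 9.94 in Apc, 10.62 to 10.73 in Myc, 10.9 to 11.12 in ApcMyc) and the macrophage list (9.22 to 10.56, 9.31 to 9.91, 10.91 to 11.33 and 11 to 11.43). T and NK cell genes summed to 8.44 to 9.65 in ApcMyc against 8.07 to 8.3 in Myc, 7.19 to 7.41 in Apc and 7.01 to 8.0 in WT. Comparing Myc or ApcMyc with WT or Apc runs across the title styles. Style, array brightness and Myc deletion cannot be told apart there. The part of these cells in the interactions of genes high in ApcMyc, such as Slfn4, was not tested.

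Most large responses to Apc loss had no called interaction. Apc minus WT was called for 15.6% of all probe sets (7.87% higher, 7.68% lower), and of those that reached 2-fold, 1277 rose and 965 fell. Of the rises, 135 had a called interaction that made them smaller with Myc deleted, 2 one that made them larger, 533 had no called interaction and rose with Myc deleted as well, and 607 had neither call and could not be placed. Of the falls the numbers were 117, 3, 468 and 377. Median responses of these probe sets were 1.42 and 0.77 for the rises and -1.35 and -0.79 for the falls, with Myc intact and deleted. A set selected for size in 1 comparison tends to be smaller in the other. Selected instead in ApcMyc against Myc (13.4% called, 6.64% higher and 6.76% lower), the 1003 rises had medians of 1.32 with Myc deleted and 0.82 with Myc intact and the 792 falls -1.27 and -0.96. Of the 296 rises of at least 4-fold with Myc intact, 39 had a called and smaller response and 170 were also called with Myc deleted; of the 171 falls these were 41 and 109.

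The number with a called interaction in this split, 257, was 130 and 58 without ApcMyc replicates 1 and 2, 63 without Apc replicate 2, 67, 80 and 61 without Myc replicates 1, 2 and 3, and 64 and 118 without WT replicates 2 and 3. Of 41 named genes with a called probe set and at least 2 probe sets, 31 had all probe sets on the same side of 0, 9 had 2 or more called and 5 had all called. These counts cover listed probe sets only, which were chosen on these arrays, so the agreement is no independent support. Malat1, a nuclear noncoding RNA chosen after its values were seen, had 2 of 3 probe sets called, at 2.45 and 1.75, and the third at -0.29 (adjusted p = 0.628).

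Promoter sequences of RefSeq (GRCm38.p6), taken as the 250 bases before the start of the first listed transcript, were searched for CACGTG, the E-box that Myc binds with its partner, and for CTTTGAT, a core motif of TCF factors, on both strands. Of the 130 named genes with a called interaction, 48 of 64 positive and 49 of 66 negative had an entry. CACGTG was in 4 of the 48 (8.3%) and 7 of the 49 (14.3%), against 136 of 1574 named genes (8.6%) and 1634 of 27025 promoters in all (6.0%). CTTTGAT was in 1 (2.1%) and 2 (4.1%), against 2.3% and 3.2%. A match describes these letters alone. The 5 called genes of the naming rule whose promoter holds either motif are shown, 5′ to 3′ on the strand of the gene, with the motif, or its reverse ATCAAAG, in capitals.
Acot4 (chr12:84038129-84038378, plus strand): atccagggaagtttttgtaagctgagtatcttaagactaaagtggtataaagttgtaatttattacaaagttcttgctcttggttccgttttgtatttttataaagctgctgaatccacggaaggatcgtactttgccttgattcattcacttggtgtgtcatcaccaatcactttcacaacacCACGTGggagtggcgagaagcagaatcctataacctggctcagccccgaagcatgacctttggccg
Ildr2 (chr1:166253889-166254138, plus strand): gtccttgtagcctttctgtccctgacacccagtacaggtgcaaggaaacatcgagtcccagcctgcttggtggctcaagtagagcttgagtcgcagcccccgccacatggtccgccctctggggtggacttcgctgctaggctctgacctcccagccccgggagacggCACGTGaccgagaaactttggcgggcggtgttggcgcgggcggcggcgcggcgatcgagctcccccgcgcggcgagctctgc
Pigr (chr1:130826434-130826683, plus strand): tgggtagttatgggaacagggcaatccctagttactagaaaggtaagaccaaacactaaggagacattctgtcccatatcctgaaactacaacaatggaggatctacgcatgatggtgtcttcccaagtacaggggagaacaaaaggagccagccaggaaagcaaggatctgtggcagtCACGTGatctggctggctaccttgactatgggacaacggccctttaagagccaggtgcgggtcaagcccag
Hal (chr10:93488518-93488767, plus strand): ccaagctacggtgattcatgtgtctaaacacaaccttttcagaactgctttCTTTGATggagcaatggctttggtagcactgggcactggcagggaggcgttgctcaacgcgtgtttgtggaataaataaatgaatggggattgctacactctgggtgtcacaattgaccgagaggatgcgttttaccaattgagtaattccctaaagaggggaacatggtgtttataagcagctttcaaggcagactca
Slc1a2 (chr2:102706188-102706437, plus strand): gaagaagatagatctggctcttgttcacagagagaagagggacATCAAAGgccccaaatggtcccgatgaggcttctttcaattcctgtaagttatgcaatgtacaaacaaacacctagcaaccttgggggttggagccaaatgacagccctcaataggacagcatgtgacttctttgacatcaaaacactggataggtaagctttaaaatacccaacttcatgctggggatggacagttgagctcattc
The E-box begins 66 bases before the start in Acot4, 82 in Ildr2 and 71 in Pigr, and the TCF motif 199 bases before it in Hal and 207 in Slc1a2. Acot4, Ildr2 and Slc1a2 had negative interactions and Pigr and Hal positive ones, as given above.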

How the data were processed

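Liver RNA of AhCre-positive mice was measured, with 12 arrays in 4 groups of 3, on 1-colour expression arrays; the array type and software were not stated. The authors deposited 1 score per probe set and array; tested on the values, the scores are natural log signals standardized within each array. Signals were recovered from the scores' grid of 0.1, quantile normalized and taken as log2(signal + 16), whereas the deposited scores themselves served as an alternative. The number of arrays limits the precision. limma 3.58.1 in R 4.3.3 was fitted to 4 group means, with Benjamini-Hochberg adjustment over 32115 probe sets and a threshold of 0.05; the fit was tested on simulated data. Python 3.11.15 made the counts. Names came from the authors' deposited SAM lists, updated through RefSeq, and each gene is represented by its brightest probe set. The text names the 15 largest called interactions in each direction, Myc, Glul, Axin2, Lgr5, Cyp2f2 and Ccnd1, and up to 4 members with the smallest interaction p of each list with at least 3 measured; a gene named beyond these was chosen after its values were seen. Of the genes this rule names, 2 are not reported here. The members and lists were chosen with earlier results of these data known. Replicate numbers stand in the titles of WT and Apc only; residuals of equal numbers correlated at 0.0627, 0.00557 and -0.0122, so the numbers were not treated as pairs.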

Additional observations from a re-analysis of the deposited data

Results flagged for a closer look

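The response to Apc loss differed between livers with and without Myc for 744 probe sets by the limma interaction test. Among the genes named in the text, the interaction (log2) was called and negative for 20: Plat -2.94, Mme -2.77, Psat1 -2.68, Clec2h -2.49, Myc -2.49, Ddr1 -2.43, BC048546 -2.39, Ap2b1 -2.28, Mup3 -2.22, Ywhag -2.17, Ildr2 -2.06, Apob -2.01, Snhg3 -1.96, Gas1 -1.87, Fabp1 -1.65, Slc1a4 -1.60, Acot4 -1.48, Slc1a2 -1.42, Cldn2 -1.28, Rhbg -1.13. It was called and positive for 21: Ugt2b38 3.62, Thrsp 2.89, Celf2 2.60, Ccnt2 2.51, Slfn4 2.51, Kynu 2.50, Hal 2.48, LOC668215 2.46, LOC634842 2.44, 9130409I23Rik 2.38, Asap2 2.36, Ppp4r3a 2.29, AW124722 2.28, G530011O06Rik 2.21, Apobec1 2.2, Nudt7 1.80, Kdr 1.75, Ubtf 1.46, Gldc 1.12, Ftcd 1.06, Pigr 0.92. These genes were brought out because the difference between the 2 responses passed the test itself. Their array values stand in the report, and the cause of none was tested.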

How the results depend on the processing

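The interaction count of 744 was 162 on the deposited scores, 149 on quantile normalized scores, 1165 with median scaling, 194 with pseudocount 1, 1586 with pseudocount 64, 1397 without low probe sets, 1309 with an intensity trend and 1619 with array weights. It ranged from 151 to 921 when 1 array was left out, and was 602 with the replicate block, 513 of them shared. The cause of these differences was not tested. The Apc response with Myc deleted, 4302 calls, ranged from 2535 to 4909 when 1 array was left out. In the split of the 2-fold Apc responses, the 257 with a called interaction became 82 with pseudocount 1, 519 with array weights, 386 at 1.5-fold, 80 at 4-fold and 58 to 369 without 1 array. The 1001 also called with Myc deleted became 1621 at 1.5-fold and 279 at 4-fold. The 984 undecided became 1621 with pseudocount 1, 257 with pseudocount 64, 415 without low probe sets, 2580 at 1.5-fold and 108 at 4-fold. The split was not computed on the scores, which carry no fold. No called gene that the naming rule put in the text changed direction. Uncalled ones that did were the interaction of Apoa1 (0.103 on the scores), the interaction of Cd68 (-0.117 with median scaling, -0.118 with array weights, -0.239 to 0.322 leaving out 1 array), the interaction of Cox6c (0.035 on the scores, -0.269 to 0.002), the interaction of Cyc1 (-0.214 with median scaling, -0.119 to 0.137), the interaction of Serpina1a (0.176 on the scores, 0.06 within title styles, -0.32 to 0.018 leaving out 1 array), the interaction of Slco1a4 (-0.194) and the interaction of Tpi1 (-0.076), both with median scaling. Leaving out 1 array alone turned the interaction of Abcc4 (-0.729 to 0.079), the interaction of Camp (-0.163 to 0.423), the interaction of Mmp8 (-0.049 to 0.519), the interaction of Nkg7 (-0.508 to 0.087) and the interaction of S100a9 (-1.046 to 0.23). Signal over background limits dim genes, whose values lie near the added 16.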
